A study of Homo sapiens with 3 samples.

Results

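The MS4A family (membrane-spanning, subfamily A) was followed in THP-1 cells through 5 of its genes, MS4A3, MS4A6A, MS4A4A, MS4A7 and MS4A14. Every probe set that the platform table lists with exactly 1 of these symbols was taken, which gave 16 of the 41091 probe sets with 1 gene symbol, and 5 of 19775 genes. The symbols were picked with the signals and ratios of these same 3 arrays known, so the size of each change below is a description and nothing is tested with it. THP-1, an established line from a human monocytic leukemia, has cells that grow as monocyte-like precursors and become adherent and macrophage-like under phorbol myristate acetate (PMA), an activator of protein kinase C. The groups were undifferentiated cells, a PMA 3 days culture and a PMA 8 days culture. The label of the undifferentiated cells does not mention PMA, and no dose or time of it is recorded for them. The PMA 3 days culture had 200 nM PMA for 24 h, then 3 days without it. The PMA 8 days culture had 200 nM PMA for 72 h, then 5 days without it. All groups were grown in medium with 10% serum. A change to 2% serum 16 h before RNA was taken closes the protocol. It is recorded for all 3 cultures, though the protocol does not say whether it covered the undifferentiated cells. The PMA cultures differed at once in age, in exposure to PMA and in the time since its removal, which cannot be told apart. Total RNA of each culture was labelled with biotin and measured on 1 array, so there are no replicates, no p-value and no error between cultures.

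MS4A proteins cross the membrane several times with both ends in the cytoplasm, and the genes lie side by side on chromosome 11. Most are restricted to blood and immune cells: MS4A1 encodes CD20 of B cells, and MS4A2 the beta chain of the high-affinity IgE receptor of mast cells. MS4A3 (HTm4) marks granulocyte-monocyte progenitors and binds the phosphatase CDKN3, which acts on the cell cycle kinase CDK2. MS4A6A, MS4A4A and MS4A7 are transcribed in monocytes, tissue macrophages and microglia. MS4A4A sits at the surface beside the beta-glucan receptor dectin-1 (CLEC7A) in macrophages. MS4A14 has an unusually long cytoplasmic tail and is little characterised.

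Values are MAS5 signals, a background-corrected brightness per probe set on a linear scale. The median signal of all probe sets other than controls on the 3 arrays, 149.8, served as a floor, and a fold against a value under it is given as "at least". A gene is called higher or lower at 2-fold by its brightest probe set. Each array had a mean signal of 1000 after 2% of values was left out at either end, and 48.5% to 51.4% of probe sets exceeded the floor. The only spread that could be measured was the disagreement of probe sets that read 1 gene, from 5180 genes. As an SD of log2 ratios over undifferentiated cells it was 0.43 at PMA 3 days and 0.44 at PMA 8 days, it was 0.27 between the PMA cultures, and it leaves out differences between cultures. The myeloid identity was checked on 6 of 8 marker genes with a probe set. PTPRC (CD45), the pan-leukocyte phosphatase, had 22479, 36930 and 34779 signal units in undifferentiated, PMA 3 days and PMA 8 days cells. LYZ, the lysozyme of myeloid cells, had 62439, 36591 and 23242, a log2 ratio of -1.43 at PMA 8 days over undifferentiated. Its other probe set had 62400, 15945 and 6316. CD14, ITGAM and CSF1R were above the floor on all 3 arrays and higher in both PMA cultures by brightest probe set. SPI1 (PU.1), also on that list, was at 25.0, 162 and 175 units, below the floor in undifferentiated cells.

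The 5 members split in 3. By brightest probe set, MS4A3 was lower than in undifferentiated cells by 30.0-fold at PMA 8 days and at least 46.3-fold at PMA 3 days. MS4A6A was lower by 20.2-fold at PMA 3 days and 28.4-fold at PMA 8 days, and its other probe sets gave smaller and larger folds. MS4A4A and MS4A7 stayed within 2-fold. MS4A14 was 2.12-fold above undifferentiated cells at PMA 3 days and 1.16-fold at PMA 8 days. At PMA 3 days over undifferentiated 1 of 5 members was called higher and 2 lower. Among all 13280 genes above the floor there, 20.9% were called, 10.3% higher and 10.6% lower, shares that cannot be weighed against members picked on these ratios. At PMA 8 days over undifferentiated 0 members were higher and 2 lower, where of 13514 genes 18.0% were called, 9.71% higher and 8.33% lower. Between PMA 8 days and PMA 3 days 0 of 5 members were called, where of 13026 genes 2.3% were, 1.36% higher and 0.937% lower. The median log2 ratio of the members was -0.16, -0.72 and -0.49 in these comparisons, against -0.12, -0.07 and 0.03 over all genes tested. In bulk RNA, fewer cells of a type and less RNA per cell cannot be told apart.

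**Figure D1:**
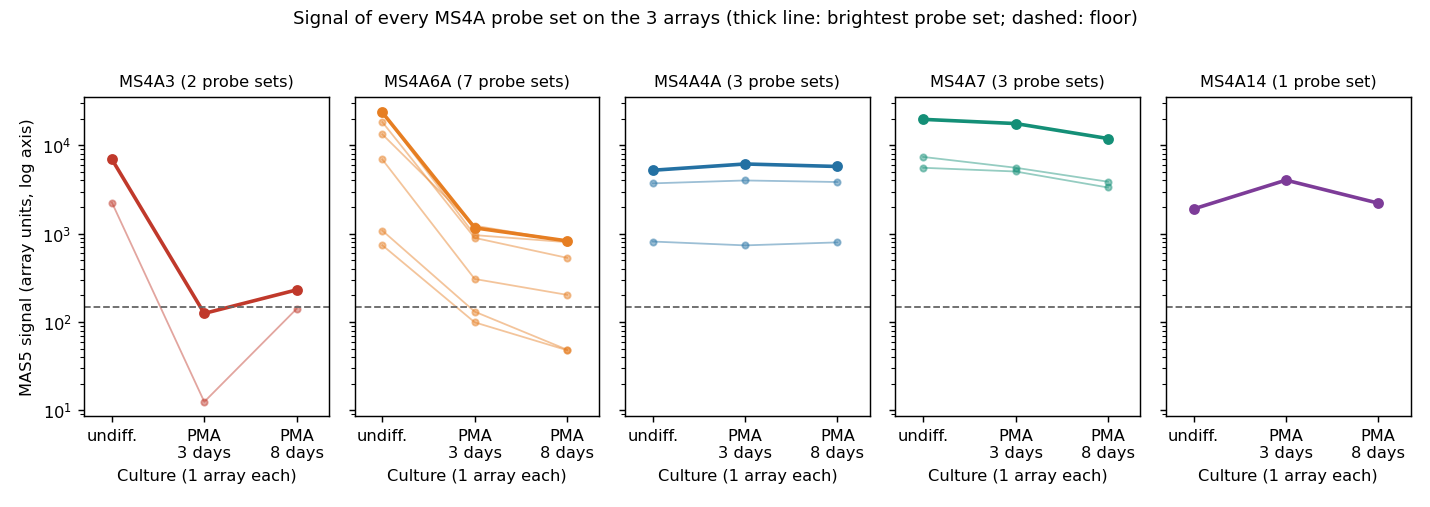
MAS5 signal (array units, log axis) of all 16 MS4A probe sets in undifferentiated, PMA 3 days and PMA 8 days THP-1 cells, 1 array each. Each line is a probe set, the thick line is the brightest of its gene and the dashed line is the floor of 149.8. All 9 lines of MS4A3 and MS4A6A drop at PMA 3 days and stay low at PMA 8 days, the 6 lines of MS4A4A and MS4A7 stay within 2-fold, and the line of MS4A14 peaks at PMA 3 days.

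MS4A3, the progenitor member, was at or near the floor in both PMA cultures. Its brightest probe set (210254_at) had 6936 signal units in undifferentiated cells, 125 at PMA 3 days, which is below the floor, and 231 at PMA 8 days. The PMA 3 days signal was thus at least 46.3-fold lower than in undifferentiated cells, and the PMA 8 days signal 30.0-fold lower. The second probe set (1554892_a_at) had 2249 units in undifferentiated cells and 12.5 and 141 in PMA 3 days and PMA 8 days cells, both below the floor, which bounds the fold at 15.0 for each. For the brightest probe set, PMA 8 days was at least 1.54-fold above PMA 3 days, short of the 2-fold call, and the difference was 0 on the log2 scale with a floor at the 60th percentile of signals. On the log2 scale the ratios were -5.53 or lower at PMA 3 days and -4.91 at PMA 8 days.

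MS4A6A, the monocyte and macrophage member, was read by 7 probe sets, and each was lower in both PMA cultures. Its brightest (224356_x_at) had 23522 signal units in undifferentiated cells, 1165 at PMA 3 days and 829 at PMA 8 days. These are 20.2-fold and 28.4-fold lower than in undifferentiated cells. The _x_at probe sets can share probes with related genes. Of those with no such suffix, 219666_at had 13319, 1233 and 822 units and 230550_at had 6913, 307 and 203 in undifferentiated, PMA 3 days and PMA 8 days cells. For 219666_at this was 10.8-fold lower at PMA 3 days and 16.2-fold lower at PMA 8 days, and for 230550_at 22.5-fold and 34.0-fold. A pair of dim probe sets, 232724_at and 232725_s_at, started at 1084 and 740 units in undifferentiated cells and were below the floor in both PMA cultures, at least 7.24-fold and 4.94-fold lower. The 5 probe sets of MS4A6A still above the floor were all dimmer at PMA 8 days than at PMA 3 days. The difference was 1.20-fold to 1.68-fold, which is within the 2-fold call.

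The windows around the RefSeq starts of these genes (GRCh38.p14, 250 bases before to 50 after the start) are shown because both genes were lower together, with capitals marking the letters GAGGAA of the PU.1 motif on either strand. The MS4A3 window is chr11:60056415-60056714, plus strand. The MS4A6A window is chr11:60184617-60184916, minus strand, that of the outermost of 4 starts listed.
MS4A3: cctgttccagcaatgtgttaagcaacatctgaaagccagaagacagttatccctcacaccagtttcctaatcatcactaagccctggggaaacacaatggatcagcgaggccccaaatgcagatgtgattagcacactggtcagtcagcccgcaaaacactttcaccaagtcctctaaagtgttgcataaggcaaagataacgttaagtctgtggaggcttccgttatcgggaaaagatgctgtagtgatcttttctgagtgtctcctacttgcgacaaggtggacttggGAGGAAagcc
MS4A6A: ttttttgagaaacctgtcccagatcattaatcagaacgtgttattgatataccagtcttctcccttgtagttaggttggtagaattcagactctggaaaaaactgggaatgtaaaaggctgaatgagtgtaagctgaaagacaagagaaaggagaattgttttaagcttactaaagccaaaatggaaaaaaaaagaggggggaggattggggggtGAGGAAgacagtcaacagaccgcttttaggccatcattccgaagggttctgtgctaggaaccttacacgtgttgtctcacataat

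MS4A4A, the macrophage member that pairs with dectin-1, stayed within 2-fold. Its brightest probe set (219607_s_at) had 5220 signal units in undifferentiated cells, 6148 at PMA 3 days and 5760 at PMA 8 days, ratios of 1.18-fold and 1.10-fold over undifferentiated. The probe set 1555728_a_at had 3711, 4002 and 3842 units in the same order, and 224357_s_at had 815, 737 and 797. The log2 ratios of the 3 probe sets over undifferentiated cells ran from -0.14 to 0.24 at PMA 3 days and from -0.03 to 0.14 at PMA 8 days, all within 1 SD of the spread between probe sets of a gene. Their signs differed, and scaling to the poly-A controls turned the brightest from 0.24 to -0.07 at PMA 3 days, so no direction can be given.

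MS4A7, a macrophage and microglia member, stayed within 2-fold and was dimmest at PMA 8 days. Its brightest probe set (223343_at) had 19660 signal units in undifferentiated cells, 17630 at PMA 3 days and 11934 at PMA 8 days. The other probe sets had 7386, 5577 and 3873 units (223344_s_at) and 5566, 5055 and 3331 units (224358_s_at) in the same order. All 3 were lowest at PMA 8 days. At PMA 3 days over undifferentiated the log2 ratios were -0.41 to -0.14, within 1 SD of the probe-set spread. At PMA 8 days over undifferentiated they were -0.93 to -0.72, that is 1.65-fold to 1.91-fold lower, and at PMA 8 days over PMA 3 days -0.60 to -0.53. None reached 2-fold. The sign of the PMA 8 days ratio over undifferentiated was the same in all 3 probe sets. For the brightest it was -0.82, -0.62 and -0.83 under quantile, median and poly-A scaling. Other floors cannot change it, since all its signals lie far above them.

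The start windows of this pair are shown for comparison with those of the genes that were lower, with the same capitals. They are chr11:60280416-60280715, plus strand, for MS4A4A and chr11:60378282-60378581, plus strand, for MS4A7.
MS4A4A: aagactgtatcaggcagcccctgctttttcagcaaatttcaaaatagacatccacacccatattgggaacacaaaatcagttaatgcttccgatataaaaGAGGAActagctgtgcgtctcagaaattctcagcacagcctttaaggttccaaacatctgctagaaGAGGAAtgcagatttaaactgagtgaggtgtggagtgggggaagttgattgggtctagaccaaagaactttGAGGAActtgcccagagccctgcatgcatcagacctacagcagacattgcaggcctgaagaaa
MS4A7: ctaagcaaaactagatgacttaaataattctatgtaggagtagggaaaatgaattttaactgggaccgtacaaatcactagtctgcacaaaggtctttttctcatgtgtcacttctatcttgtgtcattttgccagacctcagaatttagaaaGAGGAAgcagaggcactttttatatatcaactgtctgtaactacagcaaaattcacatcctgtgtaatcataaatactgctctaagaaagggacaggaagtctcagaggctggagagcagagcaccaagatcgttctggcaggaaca

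MS4A14, the long-tailed member, was read by 1 probe set (229510_at). It had 1905 signal units in undifferentiated cells, 4037 at PMA 3 days and 2216 at PMA 8 days. PMA 3 days was 2.12-fold above undifferentiated, PMA 8 days 1.16-fold above undifferentiated, and PMA 8 days 1.82-fold below PMA 3 days. The PMA 3 days array therefore stood above both others. The log2 ratio of 1.08 lies just past the call, and scaling to the poly-A controls, which were 0.31 higher on the log2 scale on the PMA 3 days array than on the undifferentiated array, gave 0.78 and ended it. The turn back of -0.87 at PMA 8 days over PMA 3 days was -0.66 under that scaling. The median log2 ratio of the 24 poly-A controls was -0.29 in that comparison, so the shift applied is not that median. How far the controls differ among themselves was not tested, which limits every result under this scaling. The MS4A14 window, chr11:60396209-60396508, plus strand, is shown with the AP-1 letters TGANTCA in capitals. AP-1 is the factor of the phorbol response element, and whether it acts on MS4A14 was not tested.
MS4A14: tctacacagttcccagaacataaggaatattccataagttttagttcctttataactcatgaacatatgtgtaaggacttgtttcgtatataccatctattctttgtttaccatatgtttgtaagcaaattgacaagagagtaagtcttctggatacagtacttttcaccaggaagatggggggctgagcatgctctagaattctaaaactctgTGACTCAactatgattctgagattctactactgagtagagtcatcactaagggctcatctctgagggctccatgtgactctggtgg

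**Figure D2:**
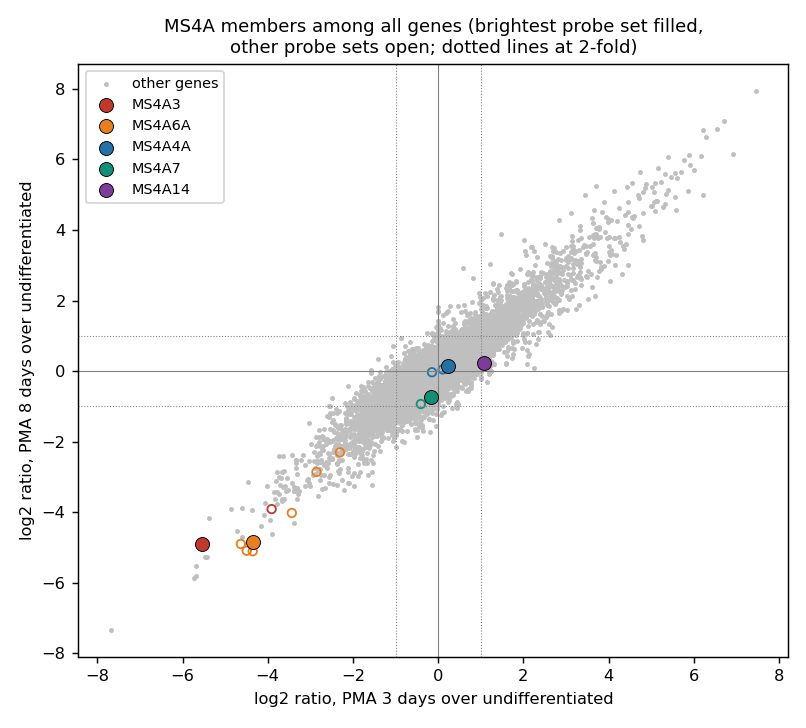
Log2 ratio of PMA 3 days over undifferentiated (horizontal axis) and of PMA 8 days over undifferentiated (vertical axis) for all genes (grey) and the MS4A members (colours; filled for the brightest probe set, open for the others). MS4A3 and MS4A6A lie at the low end of the gene cloud, at -5.53 (a bound set by the floor) and -4.34 on the horizontal axis, MS4A4A and MS4A7 within the dotted 2-fold lines, and MS4A14 past the line for PMA 3 days, at 1.08, and inside that for PMA 8 days, at 0.22.

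Motif letters were searched on both strands of these windows and of 34943 windows of the same length. GAGGAA occurred in 27.9% of all windows and in those of MS4A3, MS4A6A, MS4A7 (1 match each) and MS4A4A (3 matches), with 0 in that of MS4A14. Members with the match thus include both genes that were lower and both that stayed within 2-fold. TGANTCA occurred in 7.72% of all windows and, of the 5 members, in that of MS4A14, 36 bases before the start, with no overlap with a PU.1 match. CACGTG, the E-box bound by MITF and TFEB, occurred in 7.23% of all windows and in that of MS4A6A. TTGCNNAA (C/EBP) was found in the windows of MS4A3 and MS4A4A, against 10.5% of all windows, and AACNG (MYB) in all 5, against 77.1%. GATAA, the GATA letters, was in the MS4A3 window, against 22.8%. Matches are letters in a window and not binding sites, and these letters were chosen after the windows had been seen. The MS4A4A window was 93.0% identical over 171 aligned bases to that of MS4A4E, its neighbour in the cluster, the highest identity among the pairs of a member with another MS4A window that were aligned. MS4A4E has no probe set of its own name here, and whether MS4A4A probes read it too was not tested.

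The rest of the family was mostly below the floor. Of 13 further genes on the list, 8 had a probe set. MS4A1, MS4A5, MS4A6E and MS4A12 were below the floor on all 3 arrays, MS4A1 in each of its 4 probe sets. MS4A8 had 115 units in undifferentiated cells, 174 at PMA 3 days and 189 at PMA 8 days, and MS4A15 had 151, 66.3 and 92.6, all near or below the floor. The related genes TMEM176A and TMEM176B, which encode MS4A-like cation channel proteins, lie on another chromosome. TMEM176B had 1948 units in undifferentiated cells, 3908 at PMA 3 days and 1898 at PMA 8 days, a log2 ratio of 1.00 at PMA 3 days relative to undifferentiated cells and of -1.04 between PMA 8 days and PMA 3 days. As with MS4A14, the PMA 3 days array was the highest, and poly-A scaling took both ratios inside 2-fold, to 0.70 and -0.84. TMEM176A had 670, 1072 and 900 units, within 2-fold throughout.

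Proteins known to work with MS4A proteins had 10 genes on the list, all with a probe set. Over undifferentiated cells 4 were higher and 2 lower at PMA 3 days and 2 higher and 1 lower at PMA 8 days. Between the PMA cultures 0 were higher and 1 lower at 8 days. The shares higher and lower over all genes tested were 10.3% and 10.6%, 9.71% and 8.33%, and 1.36% and 0.937%. The median log2 ratios were 0.09 (a bound, since FCER1A was below the floor at PMA 3 days), 0.03 and -0.08, against -0.12, -0.07 and 0.03 over all genes. Poly-A scaling turned the balance, to 1 higher and 3 lower at PMA 3 days (median -0.13), 1 and 2 at PMA 8 days, and 1 and 0 between the PMA cultures. TREM2, the lipid receptor whose soluble form varies with MS4A4A, had 4235 units in undifferentiated cells, 19297 at PMA 3 days and 18236 at PMA 8 days, log2 ratios of 2.19 and 2.11 over undifferentiated. The ratios of MS4A4A were 0.24 and 0.14. TYROBP, the signalling adaptor of TREM2, had log2 ratios of 1.14 and 0.88, and LYN, a kinase downstream of the IgE receptor, had 1.05 and 1.08. Under poly-A scaling TYROBP had 0.83 at PMA 3 days and LYN 0.74 and 0.97, all inside 2-fold. FCER1G, the receptor's gamma chain, had 0.37 and 0.24, and the kinase SYK had -0.43 and -0.55 by the probe set used here. The 3 other SYK probe sets were past 2-fold lower at PMA 8 days, at -1.03, -1.15 and -1.55. FCER1A, its alpha chain, had 172 units in undifferentiated cells and was below the floor in both PMA cultures. Dectin-1, CLEC7A, had 1040, 2554 and 1219 units in the same order and was the gene called lower at PMA 8 days over PMA 3 days (-1.07). It was thus highest at PMA 3 days, like MS4A14, and poly-A scaling moved the PMA 3 days ratio of this probe set from 1.30 to 0.99. The next brightest CLEC7A probe sets had larger ratios at PMA 3 days, 1.80 and 1.89, with 0.18 and 0.91 at PMA 8 days over undifferentiated. A dimmer one was at least 1.85-fold higher at PMA 3 days, and the rest were below the floor. Poly-A scaling of these other probe sets was not tested. KIT, the stem cell factor receptor whose signalling MS4A4A affects in mast cells, had 1831 units in undifferentiated cells, 33.6 at PMA 3 days and 260 at PMA 8 days. CDKN3, the MS4A3 partner, had 8379, 2365 and 4359 units, a log2 ratio of -1.82 at PMA 3 days and -0.94 at PMA 8 days over undifferentiated, while its other probe set had -2.15 and -1.20. CDKN3 was lowest at PMA 3 days. MS4A3 was below the floor there, and its order between the PMA cultures depends on the probe set and the floor. CDK2, the kinase CDKN3 acts on, had 4105, 2298 and 3665 units, within 2-fold as deposited. Poly-A scaling took its PMA 3 days ratio from -0.84 to -1.14, past 2-fold.

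MS4A3 and MS4A6A were set beside genes of granulocyte-monocyte progenitors. Of 18 on the list 15 were above the floor, and 14 were lower and 0 higher in each PMA culture over undifferentiated, with medians of -3.78 or lower at PMA 3 days and -3.41 or lower at PMA 8 days, since several of these genes were below the floor in PMA cells. Of those above the floor on all 3 arrays, ELANE, the neutrophil elastase, had the lowest ratios, -7.69 and -7.33. AZU1, azurocidin, had -5.74 and -5.87. MYB, the progenitor transcription factor, had -5.55 and -4.92, beside -5.53 or lower and -4.91 for MS4A3. Genes of resident-type macrophages went the other way. Of 22 listed, 18 were above the floor, and 16 were higher and 2 lower at PMA 3 days, 15 and 2 at PMA 8 days. Beside both lists, 10.3% of all genes tested were higher and 10.6% lower at PMA 3 days, and 9.71% and 8.33% at PMA 8 days. CD163, the haemoglobin scavenger receptor, had log2 ratios of 6.93 and 6.15, and CD14, the endotoxin co-receptor, 5.33 and 4.72. MS4A4A, MS4A7 and MS4A6A, transcribed in the same macrophages, were not among the genes that were higher on these arrays. The lower pair was F13A1, the A subunit of coagulation factor XIII (-4.17 and -4.40), and FOLR2, the folate receptor of macrophages (at least 2.86-fold lower in each), and F13A1 is also close to MS4A6A in its pattern. The lists were written with earlier results of these arrays known, and FOLR2, like FCRLA and COL1A1 among the markers of other cells, was named after its values were seen.

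**Figure D3:**
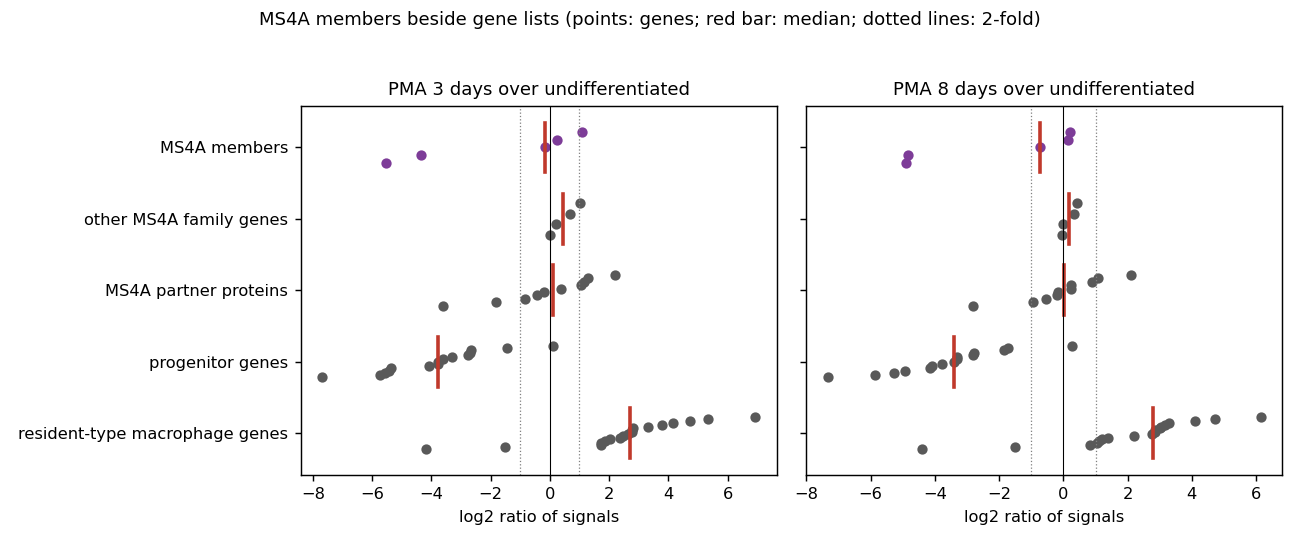
Log2 ratios of PMA 3 days (left) and PMA 8 days (right) over undifferentiated for the 5 MS4A members and 4 gene lists. Each point is a gene above the floor and the red bar is the median. MS4A3 and MS4A6A lie among the progenitor genes (medians -3.78 and -3.41, or lower), the other members between -0.72 and 1.08, and the resident-type macrophage genes have medians of 2.71 and 2.79, or higher, since genes below the floor enter at it.

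Likeness was measured among 13708 other genes as the distance between pairs of log2 ratios (PMA 3 days and PMA 8 days over undifferentiated), a description over 3 arrays. For MS4A3 the PMA 3 days ratio is set by the floor (-5.79 without a floor and -4.73 with one at the 60th percentile), so its distances depend on that choice and have no exact order. With the floor used here the nearest were MYB, CACNA2D3, a calcium channel subunit, and CCR2, the monocyte chemokine receptor. LAMP5 (0.30), F13A1 (0.46) and NAPSB (0.48) were closest to MS4A6A. FCGR2C, an IgG receptor gene nearly identical to others of its cluster, was close to MS4A7 (0.02), with SNRNP200 (0.01) and PYGL (0.02). INVS, PAAF1 and CSNK1G1 lay nearest to MS4A4A, at distances of 0.01 to 0.02, in the dense middle of the gene cloud. SRCAP (0.02), TBX19 (0.04) and MYCL, a MYC family factor (0.06), had the pattern of MS4A14.

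Along the chromosome, MS4A3 and MS4A6A, the pair that was lower, came first among the members. In RefSeq order the members run MS4A3, MS4A6A, MS4A4A, MS4A7, MS4A14, with MS4A2 between the first pair, MS4A4E between MS4A6A and MS4A4A, and MS4A6E between MS4A4A and MS4A7. MS4A7 and MS4A14 are direct neighbours, and they differed at PMA 3 days over undifferentiated, with log2 ratios of -0.16 and 1.08. Of the 10 genes with a probe set on each side, 16 in all were above the floor. Over undifferentiated cells 2 were higher and 1 lower at PMA 3 days, and 2 higher and 2 lower at PMA 8 days. Of all genes tested, 10.3% were higher and 10.6% lower at PMA 3 days, and 9.71% and 8.33% at PMA 8 days. Those before MS4A3 included MPEG1, the pore-forming protein of macrophages, with 5941 units in undifferentiated cells, 4248 at PMA 3 days and 1858 at PMA 8 days (log2 ratio -1.68 at PMA 8 days over undifferentiated). Those after the cluster included SLC15A3, a lysosomal peptide transporter, with log2 ratios of 1.53 and 1.07, and PRPF19, a splicing factor (-1.49 and -1.22). None of the 16 neighbours had a ratio as low as MS4A3 or MS4A6A.

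**Figure D4:**
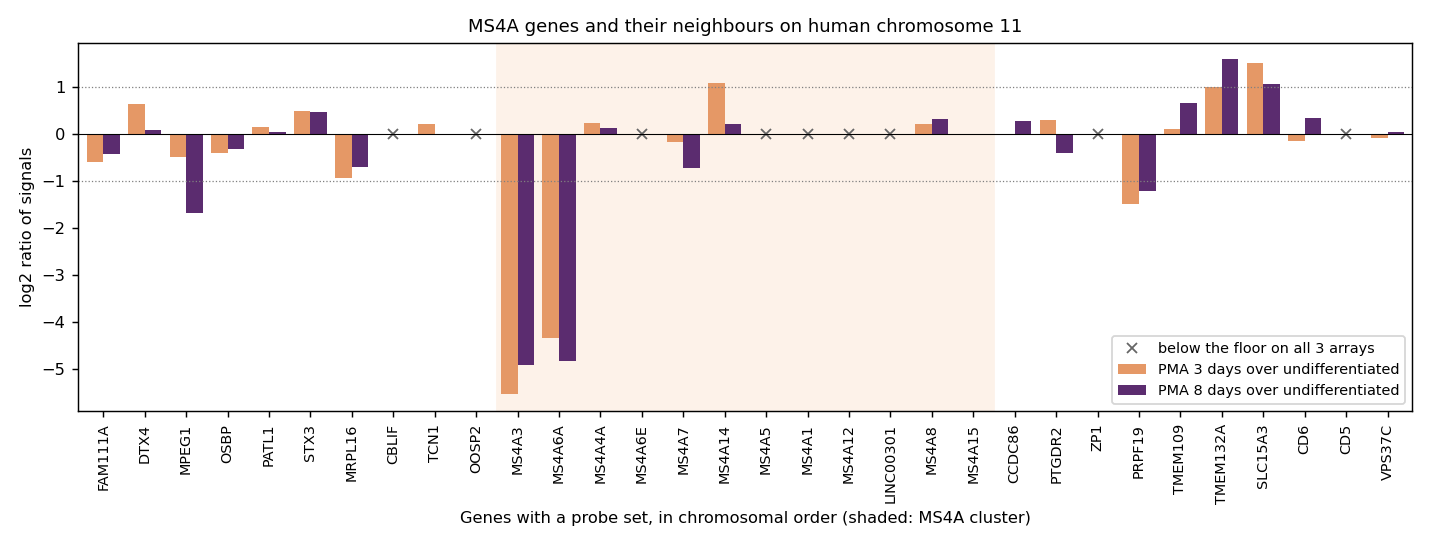
Log2 ratio of signals for PMA 3 days (orange) and PMA 8 days (purple) over undifferentiated in genes with a probe set, in chromosomal order, with the MS4A cluster shaded and dotted lines at 2-fold. Crosses are genes below the floor on all 3 arrays. The bars of MS4A3 (-5.53 and -4.91) and MS4A6A (-4.34 and -4.83) are the only ones of the row below -2, and the bar of MS4A3 at PMA 3 days is a bound set by the floor.

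Markers of other cells were read beside these results. Of 6 mast cell and basophil markers, CPA3 was below the floor on all 3 arrays, as were 4 of 5 TPSAB1 probe sets, the other having 179 units in undifferentiated cells and less than the floor in PMA cells. The summed signal was 3238 in undifferentiated cells, 708 at PMA 3 days and 1051 at PMA 8 days, most of it KIT and GATA2. By brightest probe set, 5 of 6 B cell markers with a probe set were above the floor on each array. The sums were 1723, 4559 and 5441 in the same order. FCRLA, a B cell Fc receptor-like gene, made up 233, 3034 and 3885 of these, and MS4A1 (CD20) was below the floor. All other probe sets of CD79A, CD79B and PAX5 were below the floor on all 3 arrays. The other FCRLA probe sets and a second one of CD22 were above it in the PMA cultures only, and the remaining CD22 probe sets on no array. Of 5 T and NK cell markers CD3D and CD3E were below the floor throughout, and the sums were 924, 521 and 582. The sums of 5 fibroblast and epithelial markers were 1004, 2916 and 2498, of which the collagen gene COL1A1 gave 464, 2337 and 1828, with EPCAM below the floor on all arrays. COL1A2 was below it except for 157 units of 1 probe set in undifferentiated cells. The rise of this sum rests on 1 of 5 COL1A1 probe sets: the second had 601, 459 and 567 units, and the others were near or below the floor. Of the T and NK markers NKG7 was called lower at PMA 3 days (-1.19). The mast cell sum and the T and NK cell sum moved with MS4A3 and MS4A6A, those of B cell and fibroblast markers against them, and their part in the result was not tested. With poly-A scaling, 28.7% of the calls at PMA 3 days over undifferentiated were higher, against 49.3% as deposited, and 86.3% against 59.2% at PMA 8 days over PMA 3 days. The median of all genes became -0.39 in place of -0.12 and 0.22 in place of 0.03. MS4A3 and MS4A6A were called lower in both PMA cultures under all alternatives tried.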

How the data were processed

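One oligonucleotide array was measured for each of 3 THP-1 cultures. The intensity values were deposited by the authors and made with MAS5, per the submitters' processing notes; version and settings are not given in the sources used here. Scaling to a 2% trimmed mean of 1000 is read from the values. Of 54675 probe sets, 62 controls were left out of the floor and the tests; 41091 had 1 gene symbol, 1801 several and 11721 none. The 16 member probe sets matched RefSeq (GRCh38.p14) by Entrez ID with 0 symbols changed, and RefSeq gave gene order and start windows. A gene stands for its brightest probe set by mean log2 signal. Values under the floor of 149.8 (median of all other probe sets) were set to it, log2 ratios were formed, and genes above it on at least 1 of the compared arrays were called at 2-fold. Without replicates no p-value was formed, and the number of arrays limits the precision. Alternatives were floors at the 40th and 60th percentiles or none, no filter, quantile, median and poly-A scaling, other probe sets and a 3-fold call. Named genes are the members, listed family, partner, progenitor, macrophage and marker genes (up to 4 called per list, and the family and partner genes whatever their call), chromosomal neighbours and the 3 genes nearest each member. Members and lists were chosen with earlier results of these data known. The steps were tested on simulated data. Versions were Python 3.11.15, numpy 2.4.6, pandas 2.3.3, matplotlib 3.10.9.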

Additional observations from a re-analysis of the deposited data

How the results depend on the processing

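MS4A3 and MS4A6A were called lower than in undifferentiated cells in both PMA cultures under every alternative, with log2 ratios over 9 alternatives of -5.79 to -3.91 and -4.64 to -3.43 at PMA 3 days, and of -5.01 to -3.91 and -4.93 to -4.02 at PMA 8 days. The smallest for MS4A3 came from its dimmer probe set, where both PMA signals are at the floor. MS4A14 lost its call at PMA 3 days under poly-A scaling (0.78) and the 3-fold threshold, and kept it under the other scalings and floors. It has no second probe set, and MS4A4A has none without a suffix. The sign of MS4A4A at PMA 3 days turned under poly-A scaling (-0.07 in place of 0.24), as did its ratio between PMA 8 days and PMA 3 days (0.11 in place of -0.09). The ratio of MS4A3 between PMA 8 days and PMA 3 days, 0.63, ran from 0 to 0.88. MS4A4A and MS4A7 were called in none of the comparisons under any alternative. Of the 129 member ratios under alternatives, 119 moved by less than 1 SD of the spread between probe sets and 10 by more. Many of the 119 could not move, because signals far above the floor do not depend on it and some alternatives return the same probe set. The count therefore does not measure how firm the ratios are. Of the called ratios 0 changed sign. Counts of all genes past 2-fold depended on the settings. At PMA 3 days over undifferentiated 2777 genes were called, against 6373 with no floor, 1286 by the second-brightest probe set of fewer genes and 1238 at 3-fold. At PMA 8 days over undifferentiated 2438 were called, against 5887, 1179 and 1089 under the same alternatives. Between PMA 8 days and PMA 3 days 299 were called, against 3622, 143 and 20, and 553 and 180 with floors at the 40th and 60th percentiles and 181 by the median over probe sets. Why these counts moved was not tested. No paired analysis was possible because each condition has 1 array, and no array could be left out for the same reason.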
